A study of Homo sapiens with 8 samples.

Results

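The regions described here were the CTCF ChIP-seq peaks of replicate 2 that had no counterpart in replicate 1. A peak of the replicate 2 list on chromosomes 1 to 22 or X was taken when it shared no base pair with any peak of the replicate 1 list, and 1534 of the 35765 replicate 2 peaks on those chromosomes (4.29%) met this rule. With the replicate 1 list cut to as many peaks as the replicate 2 list, by p-value, 2594 peaks met it. The other 34231 replicate 2 peaks are called shared below, and 8557 replicate 1 peaks without a replicate 2 peak are called replicate 1 only. A further 121 of the 317 replicate 2 peaks on other contigs also lacked a replicate 1 peak and were not included. The peaks were thus chosen by measured values, the peak calls of both CTCF lists, so strength and absence from replicate 1 are given as descriptions, whereas position, sequence and overlap with the other lists were not used to choose the peaks.

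The series measured protein binding by ChIP-seq in the osteosarcoma line U-2 OS. Chromatin was fixed with 1% formaldehyde for 6 min, and the 8 libraries gave 5 peak lists with 93632 peaks in all. Both CTCF libraries (antibody ab128873) and their inputs carry the label clone C32, with the endogenous knock-in FLAG-Halo-CTCF, so the CTCF lists come from 1 clone. The series' design text instead names wild type cells for CTCF. The libraries for IgG (ab46540/1), Sp1 antibody 1 (MA5-32497) and Sp1 antibody 2 (PA5-29165), 1 each, and their input carry the endogenous knock-in V5-Halo-SP1, although their titles say parental line. Overlap between CTCF and Sp1 or IgG lists thus compares libraries of different edited lines. The CTCF and Sp1 libraries were also run on different sequencer models. Line, antibody and sequencer cannot be told apart.

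CTCF is a zinc finger protein that binds a long, well-conserved DNA motif, stops loop-extruding cohesin and insulates neighbouring chromatin domains. Most of its sites are recognised by a compact motif core and recur between cell types. Alpha satellite is the tandem repeat of human centromeres, built from monomers of 171 bases in arrays of many near-identical copies. Some monomers carry the CENP-B box, the binding site of the centromere protein CENP-B. Human satellites 2 and 3 are other pericentromeric repeats, made of diverged tandem copies of the word ATTCC. Reads from near-identical copies cannot be assigned to a single copy with confidence.

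Sequences of the strongest peaks with an intact CTCF core are shown first, because the core is the textbook mark of a CTCF site. Only 18 of the 1534 peaks (1.17%, 95% Wilson interval 0.744 to 1.85%) had the 12-base CTCF core without a mismatch within 50 bp of the summit, against 18.7% of shared peaks. The 5 with the highest fold enrichment are printed from hg38 with 50 bases on each side of the summit, 5′ to 3′ on the strand of the motif, with the core in capitals.
chr15:52163672-52163772, plus strand: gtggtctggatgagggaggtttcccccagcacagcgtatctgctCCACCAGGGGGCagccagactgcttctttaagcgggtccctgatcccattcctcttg
chr5:147690791-147690891, minus strand: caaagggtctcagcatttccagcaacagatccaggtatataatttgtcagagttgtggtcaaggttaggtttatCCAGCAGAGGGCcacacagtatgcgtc
chr13:38223252-38223352, minus strand: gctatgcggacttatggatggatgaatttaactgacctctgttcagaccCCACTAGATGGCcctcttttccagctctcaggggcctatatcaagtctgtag
chr10:91856780-91856880, plus strand: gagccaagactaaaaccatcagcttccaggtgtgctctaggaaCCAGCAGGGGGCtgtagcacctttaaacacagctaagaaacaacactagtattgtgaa
chr16:69859780-69859880, minus strand: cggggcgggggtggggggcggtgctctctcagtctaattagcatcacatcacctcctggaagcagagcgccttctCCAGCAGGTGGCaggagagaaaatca
The first lay within 1 kb of a Y RNA start and inside GNB5, which encodes a G protein beta subunit. It had a fold enrichment of 6.56, and its core was centred within 1 bp of the summit. The second, in an intron of JAKMIP2, had a fold of 6.06, with the core centred about 30 bp from the summit. The third, in an intron of the noncoding gene LINC00571, had a fold of 5.80. The fourth, in an intron of TNKS2, which encodes the poly-ADP-ribosyltransferase tankyrase 2, had a fold of 5.05. The fifth, in an intron of the ubiquitin ligase gene WWP2, had a fold of 4.88. All 5 summit words of 50 bases occurred once in the genome.

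Most replicate 2 only peaks lacked the core. The next sequences show the alpha satellite kind, a single monomer length of 171 bases around a CENP-B box (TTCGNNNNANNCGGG, in capitals), taken within 171 bp of the summit of the strongest box-bearing peak in each of the 4 richest 1 Mb windows that lie on different chromosomes.
chr1:124320166-124320336, plus strand: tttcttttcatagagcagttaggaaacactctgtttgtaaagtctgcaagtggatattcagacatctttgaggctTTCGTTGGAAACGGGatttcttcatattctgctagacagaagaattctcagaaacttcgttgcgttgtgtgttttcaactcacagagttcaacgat
chr13:17359993-17360163, plus strand: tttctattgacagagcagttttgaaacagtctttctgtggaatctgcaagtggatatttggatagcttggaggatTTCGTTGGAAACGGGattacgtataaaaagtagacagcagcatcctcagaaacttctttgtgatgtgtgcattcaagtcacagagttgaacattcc
chr10:40596456-40596626, plus strand: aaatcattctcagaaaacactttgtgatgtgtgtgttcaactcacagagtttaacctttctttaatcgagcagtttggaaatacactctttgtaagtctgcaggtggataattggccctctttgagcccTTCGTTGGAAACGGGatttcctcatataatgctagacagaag
chr20:27834283-27834453, plus strand: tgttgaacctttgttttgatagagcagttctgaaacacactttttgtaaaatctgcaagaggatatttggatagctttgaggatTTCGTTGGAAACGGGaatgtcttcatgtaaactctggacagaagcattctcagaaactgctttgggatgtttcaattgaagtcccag
These peaks had folds of 4.48, 3.93, 3.47 and 4.54, in that order. Their 50-base summit words occurred 156, 1597, 453 and 634 times in hg38. The box carried the same 15 letters in all 4.

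The last pair shows ATTCC arrays, with each ATTCC or its complement GGAAT in capitals, at the 2 chromosomes whose peaks of this kind had the highest −log10 q.
chr1:125180074-125180174, plus strand: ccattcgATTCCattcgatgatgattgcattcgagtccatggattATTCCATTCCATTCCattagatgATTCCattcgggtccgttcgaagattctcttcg
chr16:46398721-46398821, plus strand: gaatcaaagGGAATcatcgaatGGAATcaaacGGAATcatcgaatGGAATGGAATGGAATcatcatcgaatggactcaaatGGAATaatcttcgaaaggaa
The first peak had a fold of 1.58 and a −log10 q of 605, and the second a fold of 1.35 and a −log10 q of 54.1. Unlike the alpha satellite words above, the 50-base summit word of each occurred only 1 time in hg38. High significance beside a very low fold was also seen in peaks not classed as ATTCC arrays.

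The replicate 2 only peaks were weak. Their fold enrichment over the control, a ratio written by the authors' peak caller, had a median of 3.08 and ran from 1.21 to 7.32, whereas shared replicate 2 peaks had a median of 21.7 and reached 424. The median −log10 q was 4.91 against 108, and the median width was 234 bp against 509 bp. No replicate 2 peak with a fold of 7.5 or more (0 of 27722) lacked a replicate 1 peak. The share without a replicate 1 peak was 2.42% at folds of 5 to 7.5, 12.7% at 4 to 5, 39.2% at 3 to 4, 68.3% at 2 to 3 and 82.4% under 2. Weak peaks were not always lost, since 6312 shared peaks (18.4% of all shared) had a fold no higher than that of the strongest replicate 2 only peak. Replicate 1 only peaks had a median fold of 5.75 in their own library. As these values took part in choosing the regions, no test was made of them.

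**Figure D1:**
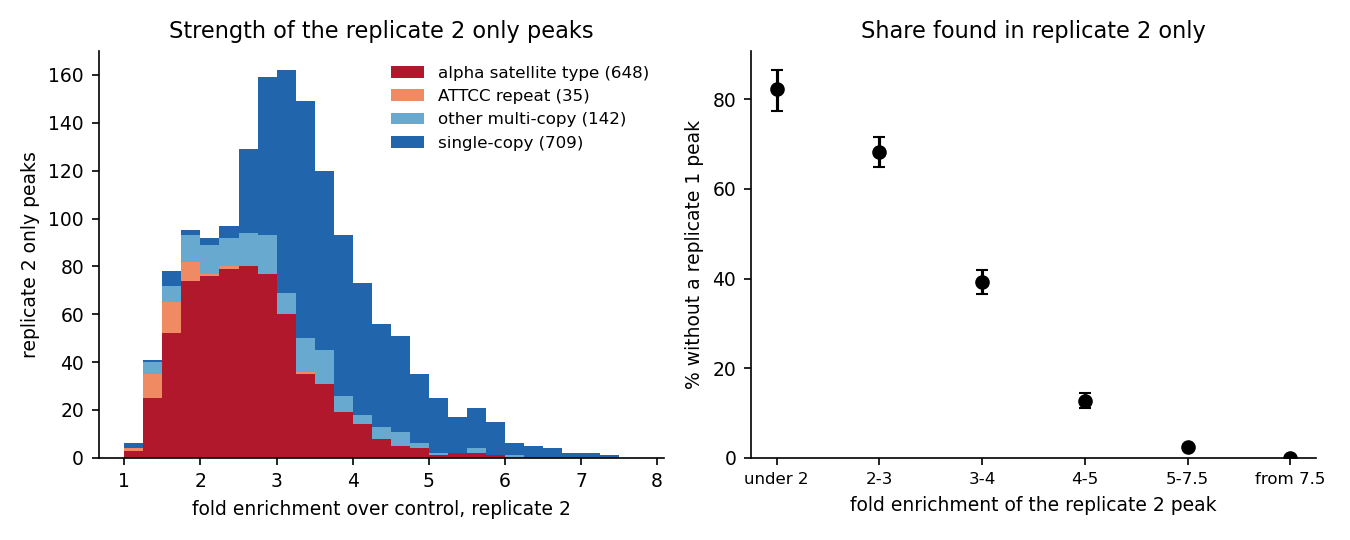
Left, number of replicate 2 only peaks by fold enrichment over the control in bins of 0.25, stacked by repeat class, with the number of peaks of each class in the key. Right, percentage of replicate 2 peaks without a replicate 1 peak by fold, with 95% Wilson intervals, which falls from 82.4% under a fold of 2 to 0 from 7.5 upwards.

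The peaks fell into 2 main kinds by sequence. Repeats were measured without a repeat annotation, from the letters of hg38 alone. Bases around the summits were compared with those a fixed distance downstream, and over 1 kb the replicate 2 only peaks matched best, among distances of 100 to 250 bases, at 171 bases, with 35.9% identical bases against 26.4% around shared peaks at the same distance. Each peak was then placed in the first class that held. The alpha satellite type had a CENP-B box within 171 bp of the summit, or at least 50% identity at the monomer length, allowing 169 to 173 bases. The ATTCC class had ATTCCATTCC on either strand in that window. The other multi-copy class had a 50-base summit word that occurred more than once in hg38, and the single-copy class comprised the rest. The classes were drawn after the sequences had been seen.

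Alpha satellite type sequence held 648 of the 1534 peaks (42.2%, 39.8 to 44.7%), against 0.316% of shared peaks and 0.467% of replicate 1 only peaks. The difference from shared peaks was 41.9 percentage points (95% Newcombe interval 39.5 to 44.4). Weak shared peaks are the 312 shared replicate 2 peaks with a fold no higher than the replicate 2 only median of 3.08. Of these, 21.2% were of this type, and the difference from them was 21.1 points (15.6 to 25.9). The 2 sets are not matched for strength, as weak shared peaks had a median fold of 2.64. By fold, the type held 154 of 220 replicate 2 only peaks under 2, 312 of 477 at 2 to 3 and 145 of 524 at 3 to 4. At higher folds it held 31 of 215 at 4 to 5 and 6 of 98 at 5 to 7.5. Among windows of the same length over the whole genome, 2.31% were of this type. CENP-B boxes alone were found at 29.1% of replicate 2 only peaks, 0.152% of shared peaks and 6.09% of weak shared peaks. They were found at 0.304% of replicate 1 only peaks and 1.5% of genome windows. Identity at the monomer length alone was met by 30.2% of replicate 2 only, 0.196% of shared and 17.3% of weak shared peaks. The ATTCC class added 35 peaks (2.28%), other multi-copy sequence 142 (9.26%) and single-copy sequence 709 (46.2%). The word ATTCCATTCC itself was found at 117 peaks (7.63%), against 0.222% of shared and 12.8% of weak shared peaks. Peaks with this word outside the ATTCC class had met the alpha satellite rule first. The alpha satellite type thus includes ATTCC-bearing sequence. Of the 312 weak shared peaks, 40 carried the word, but only 4 were in the ATTCC class and 66 were of the alpha satellite type. The type is therefore a class by rule and not alpha satellite alone, above all among weak shared peaks. Single-copy sequence made up 94.8% of shared, 93.5% of replicate 1 only and 57.7% of weak shared peaks. Other multi-copy sequence was more frequent in weak shared peaks (19.9%) than in the replicate 2 only peaks, and the difference was −10.6 points (−15.6 to −6.28). The intervals cover counting error only, and neighbouring peaks in 1 array are not independent.

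**Figure D2:**
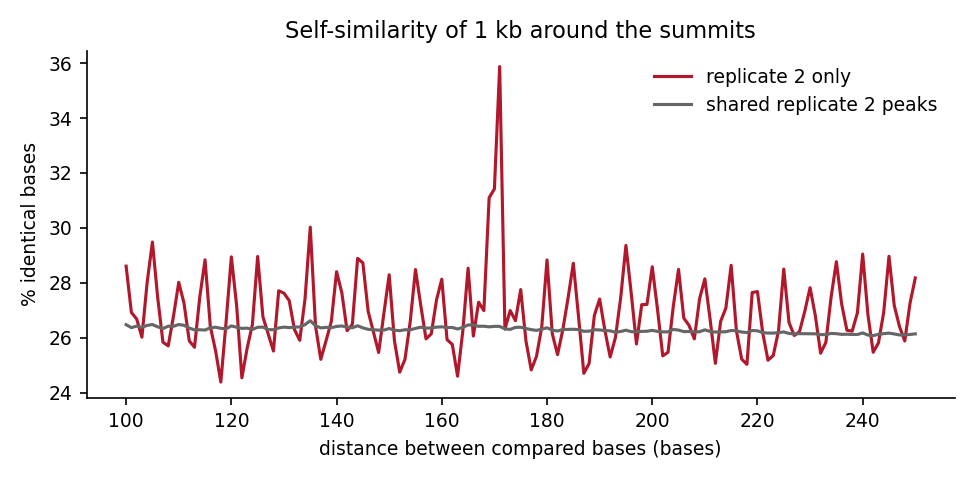
Percentage of bases identical to the base a given distance downstream (horizontal axis, bases), averaged over 1 kb at the summits of replicate 2 only peaks (red) and shared replicate 2 peaks (grey). The red line reaches 35.9% at 171 bases, and its smaller regular teeth stand 5 bases apart, the length of the ATTCC word.

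Seen from the repeat side, the 2 libraries gave very different lists. Replicate 2 had 756 peaks of the alpha satellite type and replicate 1 had 151, although the replicate 1 list was longer overall (42765 peaks against 36082). Of the 756, 85.7% (83.0 to 88.0%) had no replicate 1 peak, against 2.14% (1.99 to 2.30%) of the 33156 single-copy replicate 2 peaks. Of the 151 alpha satellite type peaks in replicate 1, 26.5% (20.1 to 34.0%) had no replicate 2 peak, beside 19.9% (19.5 to 20.3%) of single-copy replicate 1 peaks. For ATTCC arrays 46.7% of 75 replicate 2 peaks had no replicate 1 peak, and for other multi-copy sequence 7.99% of 1778. How each control library represents these arrays was not tested, as the inputs have no list here.

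The classes also differed in strength and base composition. Alpha satellite type peaks had a median fold of 2.53, ATTCC peaks 1.62, other multi-copy peaks 2.89 and single-copy peaks 3.61. The median −log10 q ran the other way for the ATTCC arrays, at 35.7, against 6.40 for the alpha satellite type and 4.29 for single-copy peaks. GC content within 50 bp of the summit had a median of 39.6% in the alpha satellite type and 54.5% in single-copy peaks, while the genome as a whole stands at 40.9%. The 5 highest −log10 q values of all replicate 2 only peaks, from 226 to 606, lay in 2 places on chromosome 1, all with folds between 1.58 and 2.04. The highest, at chr1:143212950-143213331, was of the other multi-copy class, and the next, at chr1:125179614-125180625, of the ATTCC class. Summit words found more than 100 times in hg38 marked 27.5% of replicate 2 only, 0.164% of shared and 8.97% of weak shared peaks.

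The repeat peaks were packed into a few regions. Of 3044 windows of 1 Mb, 42 (1.38%) held 5 or more replicate 2 only peaks, and these 42 contained 632 of the 1534 (41.2%, 38.8 to 43.7%). The same windows held 0.704% of shared, 0.783% of replicate 1 only and 0.722% of all replicate 1 peaks, but 21.5% (17.3 to 26.4%) of weak shared peaks. As the windows were picked for the replicate 2 only peaks they hold, these shares are descriptions. They lay on 16 chromosomes. In 31 of them at least 50% of the sequence tiles were of the alpha satellite type, and 13 had no replicate 1 peak at all. By class, 88.0% of alpha satellite type and 80.0% of ATTCC peaks lay there, but 1.55% of single-copy peaks.

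The 5 windows with the most peaks held 230 (15.0%). The richest, chr1:124000001-125000000, had 76 replicate 2 only peaks among its 97 replicate 2 peaks, with a median fold of 2.66, and replicate 1 had 29 peaks there. Its neighbour chr1:123000001-124000000 had 52 of 70, against 24 replicate 1 peaks. On chromosome 13 the window chr13:17000001-18000000 had 38 replicate 2 peaks and no replicate 1 peak. On chromosome 10 the window chr10:40000001-41000000 had 37 of 39, and chr10:41000001-42000000 had 27 of 31. Alpha satellite type tiles filled between 81.6% and 95.2% of these 5 windows. Both windows of chromosome 1 also held shared peaks, 21 and 18, whereas the window of chromosome 13 held 0.

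Chains of peaks, each within 50 kb of the next, gave the same picture on a finer scale. The longest held 91 peaks over 1023 kb at chr1:123755629-124778311. The next, at chr10:41859735-41915568, held 21 peaks in 55.8 kb, with folds from 1.31 to 1.95. An ATTCC chain at chr1:143185166-143264728 held 14 peaks, of which 13 were of that class, and a chain of 11 lay at chr10:42067195-42082731 within 15.5 kb. In all, 14 chains of 10 or more peaks held 270 peaks (17.6%), while 913 peaks had no neighbour within 50 kb. A replicate 2 only summit within 50 kb was found for 40.5% of the peaks (38.1 to 43.0%), comprising 79.5% of the alpha satellite type, 94.3% of the ATTCC class, 29.6% of other multi-copy and 4.37% of single-copy peaks. Shared peaks had another shared summit within 50 kb in 77.3% of cases, but they are a far denser set. Among the 312 weak shared peaks, a thinner set than the replicate 2 only peaks, the share was 29.5%.

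**Figure D3:**
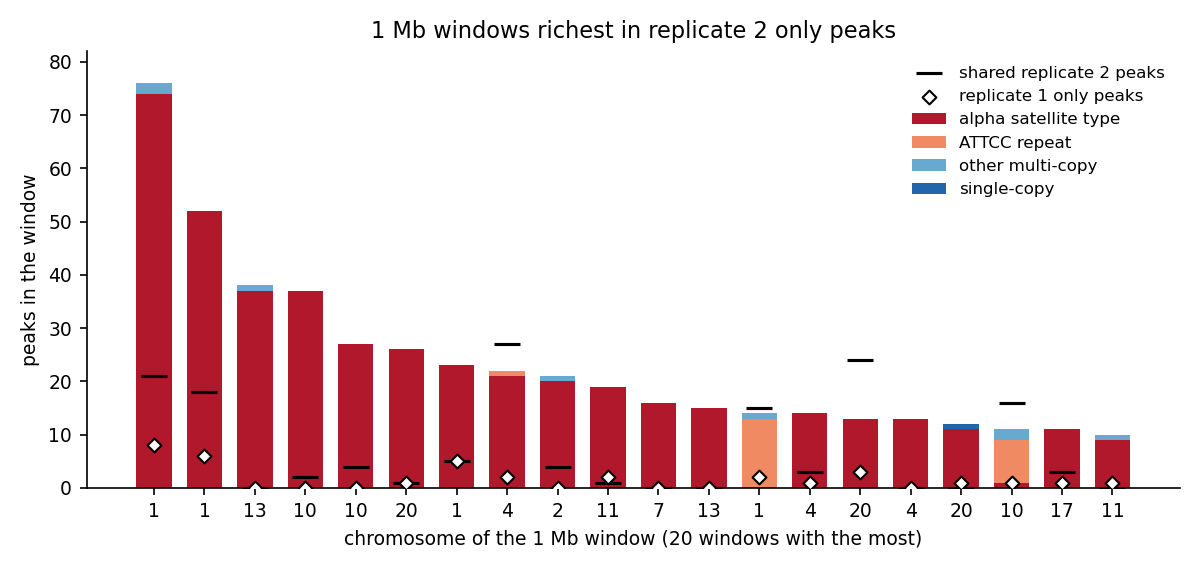
Number of peaks in the 20 windows of 1 Mb with the most replicate 2 only peaks, each labelled by its chromosome. Stacked bars are replicate 2 only peaks by repeat class, black dashes shared replicate 2 peaks and white diamonds replicate 1 only peaks, which never exceeded 8 in these windows.

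By chromosome, the share of replicate 2 peaks without a replicate 1 peak ran from 1.09% on X to 9.20% on chromosome 13. It was above 7% on chromosomes 1, 10, 13, 18 and 20. Among single-copy peaks alone the range narrowed to 0.733% on X and 3.13% on chromosome 16, and chromosome 13 stood at 1.87%. Chromosome 20 had the highest density, 1.16 peaks per Mb, and X the lowest, 0.0833 per Mb.

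**Figure D4:**
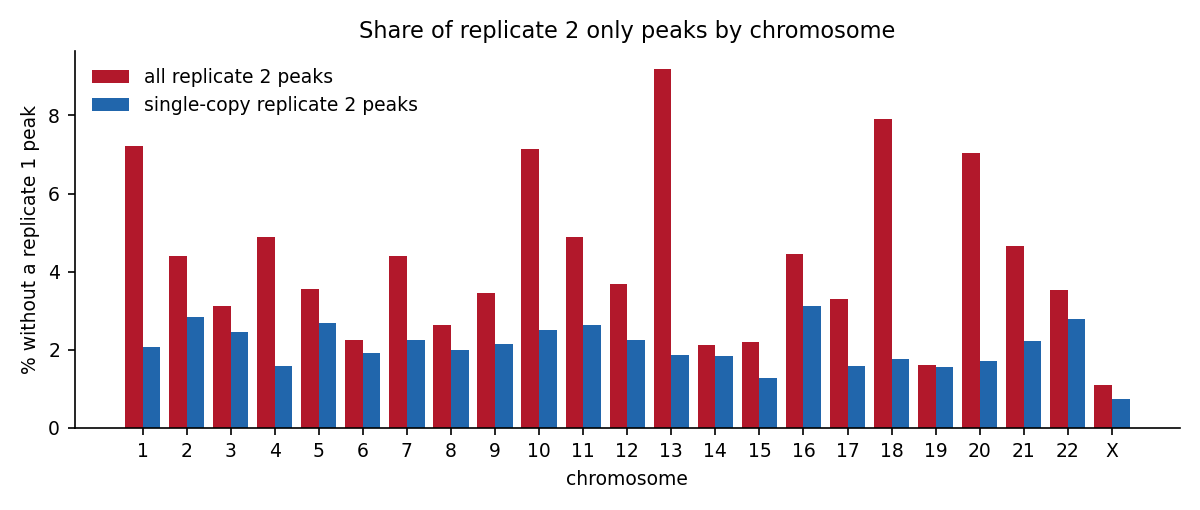
Percentage of replicate 2 peaks without a replicate 1 peak on each chromosome, for all replicate 2 peaks (red) and for single-copy peaks (blue). Red bars reach 9.20% on chromosome 13, whereas no blue bar exceeds 3.13%.

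Relative to genes, the replicate 2 only peaks were mostly intergenic. Each summit was placed in the first that held of promoter (within 1 kb of a GENCODE 44 transcript start), coding exon, other exon, intron and intergenic. Intergenic summits made up 61.0% (935 peaks, 58.5 to 63.4%) against 32.2% of shared peaks, 40.7% of weak shared peaks and 38.2% of genome bases. Introns held 22.1% (20.1 to 24.2%) against 41.6% of shared peaks. Against weak shared peaks, at 24.0%, the intron difference was −1.94 points (−7.36 to 2.96), which spans 0. Promoters held 13.7% (12.1 to 15.5%) against 20.9% of shared and 32.7% of weak shared peaks. Coding exons held 1.37% against 1.35% of shared peaks, a difference of 0.0193 points (−0.470 to 0.744). Of the alpha satellite type, 97.2% of peaks were intergenic and 1 peak was at a promoter. Of the 709 single-copy peaks, 26.8% (23.7 to 30.2%) were at promoters, 38.1% in introns and 28.6% intergenic.

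Against single-copy shared peaks, the single-copy replicate 2 only peaks were at promoters more often, by 5.91 points (2.75 to 9.32). Against single-copy replicate 1 only peaks the difference was −2.60 points (−5.89 to 0.921), which spans 0. Within bins of fold the order was not the same. Among single-copy peaks with folds of 2 to 3, promoters held 24.8% of replicate 2 only and 46.2% of shared peaks, a difference of −21.4 points (−32.2 to −9.46). At folds of 3 to 4, 4 to 5 and 5 to 7.5 the promoter differences were −3.06, −4.74 and −2.35 points, and all 3 intervals spanned 0. In the same 4 bins the intron differences were 16.5 (4.72 to 28.0), −4.70, −1.73 and 11.4 points (0.941 to 21.6). Intergenic differences were 2.39, 6.04 (0.372 to 11.9), 5.32 and −7.23 points. Intervals not printed for introns and intergenic sites spanned 0.

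The CTCF core was rarer than in any other set of CTCF peaks compared. With at most 1 mismatch and within 50 bp of the summit, on either strand, it was found at 126 of the 1534 peaks (8.21%, 6.94 to 9.69%), 56.7% of shared and 27.1% of replicate 1 only peaks. The differences were −48.5 points (−49.8 to −46.9) and −18.9 points (−20.5 to −17.2). Weak shared peaks had the core at 12.8%, a difference of −4.61 points (−8.96 to −1.02). Windows of the same length 500 bp away held the core at 0.847% of the replicate 2 only peaks, and 0.494% of all such windows of the genome did. Of the 126 peaks with a core, 111 were single-copy, where the share was 15.7% (13.2 to 18.5%). The alpha satellite type had 12 (1.85%), other multi-copy sequence 3 and the ATTCC class 0 of 35, which allows up to 9.89% by the Wilson interval.

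The core share was also compared within bins of fold. Inside a bin the 2 sets can still differ in strength. Single-copy replicate 2 only peaks had the core at 8.26% for folds of 2 to 3, 13.8% for 3 to 4, 21.6% for 4 to 5 and 22.7% for 5 to 7.5. Single-copy shared peaks in the same bins had it at 17.5%, 29.3%, 33.2% and 38.6%. The differences were −9.23 points (−17.3 to −0.655), −15.6 points (−20.3 to −10.3), −11.7 points (−17.8 to −4.42) and −15.9 points (−23.5 to −5.95). In every bin the interval lay below 0.

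**Figure D5:**
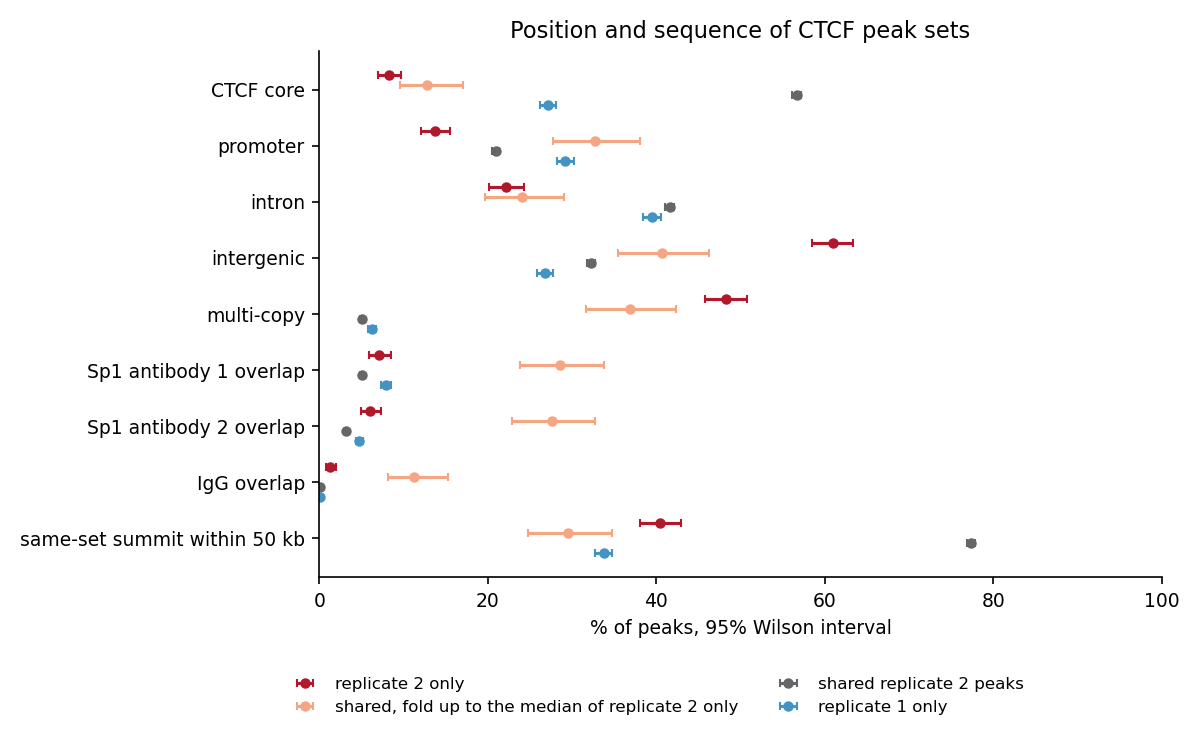
Percentage of peaks with each feature, with 95% Wilson intervals, in replicate 2 only peaks, shared replicate 2 peaks with a fold up to 3.08, all shared replicate 2 peaks and replicate 1 only peaks. The replicate 2 only set is highest for intergenic position (61.0%) and multi-copy sequence (48.3%) and lowest for the CTCF core (8.21%), while the weak shared set is highest for overlap with the Sp1 and IgG lists.

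The strongest replicate 2 only peaks were dispersed and single-copy. The highest fold, 7.32 with a −log10 q of 16.0, was at chr2:157509823-157510077, an intergenic site 21033 bp from the start of CYTIP, whose product binds the ARF exchange factor cytohesin. The next, 7.16, was at chr14:89013104-89013352, at the start of an unnamed long noncoding RNA. A peak of 7.07 lay at chr13:93234091-93234506 in an intron of GPC6, a glypican gene, with a core of 1 mismatch. A peak of 6.83 lay at chr8:89725829-89726234 at the start of RIPK2-DT, and one of 6.81 at chr4:134470602-134470874 in LINC02462, also with a core of 1 mismatch. Then 4 peaks shared the same fold, 6.56, and the same −log10 q, 13.1. These lay in the pseudogene HNRNPKP3, in GNB5, in ASIC2, which encodes an acid-sensing ion channel, and between genes at chr4:116668255-116668489. The tenth, 6.48, lay at chr2:61898925-61899114 in an intron of COMMD1. None of the 10 overlapped an IgG or Sp1 peak, and their nearest replicate 1 peak was between 5499 and 112875 bp away.

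At promoters of protein-coding genes there were 152 peaks, at 152 genes. The strongest was at KIF11, a mitotic kinesin gene, with a fold of 6.06 at chr10:92590793-92591012 and 838 bp from the start. SDHC, a subunit of succinate dehydrogenase, had 5.76 at chr1:161314755-161314956. IFNL2, an interferon lambda gene, had 5.75 at chr19:39268151-39268411, with a summit word that occurred 2 times in the genome, so its reads may belong to a paralog. PPP1R18 had 5.63 at chr6:30685401-30685669. MYADM had 5.45 at chr19:53869525-53869841, and was the only 1 of these 5 that overlapped Sp1 peaks. All 5 best motif matches had 2 mismatches.

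Within gene bodies the peaks were spread thinly. A replicate 2 only summit lay in 458 of 19970 protein-coding genes (2.29%), and 451 of these had a single summit. Genes with a summit were long, with a median of 105 kb against 27.5 kb for all protein-coding genes and 60.3 kb for the 8984 genes with a shared summit. CCDC200 had 3, with folds from 1.72 to 3.29, of which 2 were multi-copy and 1 single-copy. ADCY2, an adenylyl cyclase gene, had 2 beside 6 shared summits. CCDC3 had 2, with folds of 4.14 and 5.55, and COMMD1 2, with 4.59 and 6.48. TENM2, a teneurin gene of 1285 kb, had 2. GOLGA6L24 and GSE1 had 2 each, all in multi-copy sequence. The next places were ties at 1 summit, such as ABCA10, ABHD2 and ABTB3.

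Named gene lists rarely held a replicate 2 only summit in the body or within 5 kb, as 600 of all 19970 protein-coding genes had. Of 19 CTCF and cohesin genes only WAPL, whose product releases cohesin from chromatin, had 1, with a fold of 2.60, while 13 had a shared summit. The clustered protocadherins, whose promoter choice depends on CTCF, had 0 of 53 (up to 6.76%), although 48 had a shared summit. HOX genes had 0 of 39, with 28 holding a shared summit. Histone genes had 5 of 70, but this was a single peak of fold 3.03 at chr6:27810282-27810551 that lies within 5 kb of H2BC13, H2AC13, H3C10, H2AC14 and H2BC14. Zinc finger genes had 5 of 515 (0.971%), namely ZNF234, ZNF322, ZNF384, ZNF385D and ZNF514, with folds from 3.23 to 4.80. Olfactory receptors had 3 of 416 (0.721%), but OR51B5 and OR51M1 shared a single peak at chr11:5390214-5390502. Imprinted loci had 1 of 20, the noncoding gene MEG3 at chr14:100827191-100827528, with a fold of 5.05. Bone lineage genes had 0 of 15, p53 and RB pathway genes 0 of 17, and Sp and KLF family genes 0 of 27. Counts this small are set beside 600 of 19970, and nothing particular to a list is read from them.

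Overlap with the IgG list was rare and, with 1 exception, in repeats. Of the 1534 peaks, 19 (1.24%, 0.794 to 1.93%) overlapped an IgG peak, against 0.108% of shared peaks and 0.157% of all replicate 2 peaks. The difference from shared peaks was 1.13 points (0.684 to 1.82). By class, 15 were of the alpha satellite type, 3 of the ATTCC class and 1 was single-copy. These 19 touched 19 of the 90 IgG peaks (21.1%), while shared peaks touched 40 (44.4%). Among weak shared peaks the overlap was higher, 11.2%, and the difference turned to −9.98 points (−14.0 to −6.86). Within the alpha satellite type, 2.31% of replicate 2 only peaks overlapped an IgG peak, against 29.6% of 108 shared peaks. In the ATTCC class the shares were 8.57% of 35 replicate 2 only and 2.5% of 40 shared peaks. The strongest of the 19, chr17:26549091-26549486, was of the alpha satellite type, with a CTCF fold of 4.22 and an IgG fold of 5.26. The single-copy peak, chr11:61391253-61391536, lay 1042 bp from the start of TMEM216, a ciliary transition zone gene, with folds of 2.97 for CTCF and 4.03 for IgG. Next came chr4:49639049-49639361 and chr4:49096783-49097831, with CTCF folds of 2.09 and 1.92 beside IgG folds of 2.23 and 1.66. The fifth, chr20:28897659-28898623, had 1.86 beside 2.27. In the first 4 of these both Sp1 lists also had a peak.

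The Sp1 lists were compared in the same way. Sp1 is a zinc finger activator that binds GC boxes in promoters. Sp1 antibody 1 peaks overlapped 109 replicate 2 only peaks (7.11%, 5.92 to 8.50%), against 5.07% of shared peaks and 5.16% of all replicate 2 peaks. The difference was 2.03 points (0.826 to 3.44). Sp1 antibody 2 peaks overlapped 92 (6.00%, 4.92 to 7.30%), against 3.16% of shared and 3.28% of all replicate 2 peaks, a difference of 2.84 points (1.74 to 4.15). Against weak shared peaks, of which 28.5% and 27.6% overlapped, the differences turned to −21.4 and −21.6 points. Those peaks are not matched for fold or repeat class. Among single-copy peaks in fold bins of 2 to 3, 3 to 4, 4 to 5 and 5 to 7.5, antibody 1 differences from shared peaks were −3.24, 0.463, −1.81 and 0.653 points. For antibody 2 they were −0.398, 0.641, −3.09 and 1.86 points. Every one of these intervals spanned 0. With summits within 100 bp in place of overlap, the shares of the replicate 2 only peaks were 3.32% for antibody 1 and 3.26% for antibody 2. Among all replicate 2 peaks these shares were 1.73% and 1.22%. Both lists together overlapped 4.04% of the replicate 2 only peaks, 2.53% of all replicate 2 peaks and 21.8% of weak shared peaks. Antibody 1 overlapped 9.73% (7.76 to 12.1%) of single-copy and 4.01% (2.75 to 5.81%) of alpha satellite type peaks. For antibody 2 these shares were 6.06% (4.53 to 8.07%) and 5.40% (3.91 to 7.42%), whose intervals overlap. Among the 108 shared peaks of the alpha satellite type the overlap was far higher, 40.7% for antibody 1 and 41.7% for antibody 2. Among single-copy shared peaks it was lower, 4.82% and 2.91%. Of the 109 overlaps with antibody 1, 69 were single-copy and 26 of the alpha satellite type, and 62.4% lay at promoters. Of the 92 with antibody 2, 43 were single-copy and 35 of the alpha satellite type, and 48.9% lay at promoters.

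At promoters the overlap was common. Of 190 single-copy replicate 2 only peaks at promoters, 63 (33.2%, 26.9 to 40.1%) overlapped Sp1 antibody 1 and 40 (21.1%) antibody 2, whereas elsewhere in single-copy sequence it was 1.16% and 0.578% of 519. Among single-copy shared promoter peaks the shares were 19.6% and 11.7%. Among single-copy weak shared promoter peaks, 81 in number, they were 24.7% and 22.2%. Within single-copy promoter peaks, every interval of the difference from shared peaks spanned 0, for both antibodies and in all 4 fold bins. At folds of 3 to 4, antibody 1 overlapped 34.3% of 105 replicate 2 only and 29.1% of 247 shared promoter peaks, a difference of 5.14 points (−5.14 to 16.0). At folds of 2 to 3 the shares were 44.4% of 27 and 24.2% of 66, a difference of 20.2 points (−0.243 to 40.4). The CTCF core was found at 8.95% of the single-copy promoter peaks and at 18.1% of the other single-copy peaks. No IgG peak overlapped any of the 210 promoter peaks, which allows up to 1.80% by the Wilson interval.

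The strongest peaks with both Sp1 antibodies lay at promoters. MYADM had Sp1 folds of 6.04 and 4.80 beside its CTCF fold of 5.45. BAD, a pro-apoptotic BCL2 family gene, had 5.06 for CTCF at chr11:64271461-64271735, with Sp1 folds of 4.10 and 13.5. TRMT11, a tRNA methyltransferase gene, had 5.05 at chr6:125986452-125986694, 13 bp from its start, with Sp1 folds of 7.89 and 10.1. VPS51, a vesicle tethering gene, had 5.01 at chr11:65096001-65096295, 20 bp from its start, with Sp1 folds of 20.3 and 219. The fifth, at chr17:19111898-19112401, had 4.38 in multi-copy sequence at a noncoding gene start. None of these 5 had a CTCF core with at most 1 mismatch.

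Distances to replicate 1 were also measured. The nearest replicate 1 peak lay within 1 kb of 147 of the 1534 peaks (9.58%, 8.21 to 11.2%) and of 14.1% of single-copy peaks, while 3.73% of genome bases lay that close to one. Within 50 kb the shares were 60.6% and 78.0%, beside 65.2% of genome bases. The median distance was 27849 bp for all, 14727 bp for single-copy and 137048 bp for alpha satellite type peaks. The 5 peaks just inside the rule were 0, 5, 6, 13 and 16 bp from a replicate 1 peak, and those neighbours had replicate 1 folds of 131, 92.8, 18.9, 68.7 and 7.19. The nearest of these, chr12:42482044-42482363 at the promoter of PRICKLE1, a planar polarity gene, abutted a replicate 1 peak and had a fold of 3.09. The 5 just outside shared 7, 16, 25, 26 and 29 bp with a replicate 1 peak, and had replicate 2 folds from 2.54 to 3.74. The 5 just inside had folds from 2.47 to 3.54.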

How the data were processed

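Peak lists called by the authors per library on hg38 were used as deposited. The submitters' processing notes name cutadapt 2.6, Bowtie2 2.4.5, SAMtools 1.15.1, MACS2 2.2.7.1, bedtools 2.27.1 and deepTools 3.5.4. Fold enrichment is a linear ratio over the control, and p- and q-values are −log10 values, both as the authors deposited them. Read depth is unknown from these lists, so intervals cover counting error over peaks only. No list came from a replicate pool. As both CTCF lists define the peaks, no test across replicates was made.

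Overlap meant at least 1 shared bp. Gene positions came from GENCODE 44, and motifs, self-identity and copies of summit words were counted in hg38 (non-alternate contigs) with Python 3.11.15, numpy 2.4.6 and pandas 2.3.3, which were checked on simulated intervals and sequence. Shares have 95% Wilson intervals and differences Newcombe intervals. Named peaks were those with the highest fold in each set, the windows and genes with the most summits, and those nearest a replicate 1 peak. The peaks, gene lists and classes were chosen with earlier results of these data known. The 5 highest −log10 q values were added after the values were seen. Input libraries have no list here and were not analysed.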

Additional observations from a re-analysis of the deposited data

How the results depend on the processing

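Limits. The rule depends on the length of the replicate 1 list: cut to as many peaks as replicate 2 by p-value, it left 2594 peaks without a replicate 1 peak in place of 1534. The count stayed within 1.5 times under the other 4 definitions tried (1161 to 2022). The promoter share of 13.7% was 10.6% within 500 bp, 24.5% within 5 kb and 9.91% for protein-coding starts. The core share of 8.21% was 1.17% with 0 and 23.1% with 2 mismatches. The clustered share of 40.5% was 23.4% within 10 kb and 62.6% within 500 kb. The multi-copy share of 48.3% was 52.9% with words of 36 bases and 41.1% with 100. With summits within 100 bp in place of overlap, Sp1 antibody 1 fell to 3.32% and antibody 2 to 3.26%.

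Single-copy peaks alone, an alternative chosen after seeing the data, gave 26.8% promoter, 38.1% intron, 28.6% intergenic, 15.7% core, 3.53% clustered, 0.141% IgG and 9.73% Sp1 antibody 1. The 3.53% counts single-copy neighbours only, whereas 4.37% of single-copy peaks had any replicate 2 only neighbour within 50 kb. Against weak shared peaks (fold up to 3.08) in place of all shared peaks, the differences became −19.0 points for promoter, −1.94 (−7.36 to 2.96) for intron, 20.2 for intergenic, −4.61 for core and 11.4 for multi-copy, and turned in sign to 11.0 for clustering (from −36.9), −9.98 for IgG (from 1.13), −21.4 for Sp1 antibody 1 (from 2.03) and −21.6 for Sp1 antibody 2 (from 2.84). The weak shared set had a lower median fold, 2.64, and is not matched for strength or repeat class. The cause of these changes was not tested. The share in repeat-masked sequence was not run, since the genome used carries no masking. Leaving out a replicate gives no value, because both lists define the peaks. No paired analysis was possible because the result comes from no test and the inputs that share the CTCF replicate numbers have no list here.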
